A study of Xenopus tropicalis with 6 samples.

Results

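The 6 brain libraries of this series fell into a pattern that crossed the treatment groups. *dyrk1a* CRISPR replicates 1 and 3 and control replicate 1, called set A here, lay together for many transcripts, and *dyrk1a* CRISPR replicate 2 and control replicates 2 and 3, called set B, lay together opposite them. No label names these sets. The split was found in these same counts, so its values are a description and no test of it is given. A gene was counted as following the split where its level in every library of 1 set was above its level in every library of the other. Of 34229 gene models, 15076 exceeded 1 cpm (a gene's reads relative to the scaled total of its library, in counts-per-million units) in 3 libraries or more, and 3212 of these, 21.3%, followed the split. Set A was above for 1602 genes (10.6%) and set B for 1610 genes (10.7%).

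All libraries came from brains of *Xenopus tropicalis* tadpoles of wild-type stock at stage 46. Each held the RNA of 3 brains, and no brain was shared between replicates. The *dyrk1a* CRISPR tadpoles had received CRISPR reagents against *dyrk1a* in both cells of the 2-cell embryo, and the brains with the most mutagenesis, judged on the carcasses, were pooled. Injection leaves a mosaic of edited and unedited cells. Control brains were uninjected, so injection itself was not controlled. Reads came from polyA-selected, unstranded, low-input libraries that were handled together and shared a lane, and no batch is named for them.

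A brain transcriptome mixes messages that nearly every cell makes with messages of particular cells. Ribosomal proteins, respiratory chain subunits and proteasome subunits are housekeeping genes, many of them for small proteins. In the brain, axon guidance receptors, cadherins, ion channels and neurotransmitter receptors are made largely by neurons and their precursors. In bulk RNA a lower level can mean fewer cells of a type or less RNA per cell, and these cannot be told apart.

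Gene counts summed to between 9603583 (control replicate 3) and 35071943 (control replicate 1), and set A held the deepest library and set B the shallowest. On log2(cpm + 0.5) the first principal component held 36.7% of the variance, with *dyrk1a* CRISPR replicate 3 at −0.72 and control replicate 2 at 0.55 as its ends. The sets overlapped on this axis, since *dyrk1a* CRISPR replicate 2 lay at −0.04 and control replicate 1 at −0.01. Control replicates 2 and 3, both of set B, were the most alike pair (Pearson r = 0.988 across genes, which are not independent), and the next pair, *dyrk1a* CRISPR replicates 1 and 2 (r = 0.985), spanned the split. Every pair inside set A had an r of 0.981. Control replicate 1 was more like control replicates 3 (0.984) and 2 (0.983), of set B. On the second component (22.4% of the variance) *dyrk1a* CRISPR replicates 1 and 2 lay at −0.49 and −0.50, and control replicate 1 at 0.66. Transcripts of *dyrk1a*, the targeted protein kinase gene, were at 16.8, 15.04 and 21.4 cpm in *dyrk1a* CRISPR replicates 1 and 3 and control replicate 1. They were at 13.2, 10.8 and 14.8 cpm in *dyrk1a* CRISPR replicate 2 and control replicates 2 and 3, the order in which set A and set B values are given throughout. The gene thus followed the split, narrowly, with set A higher by 0.44 on the log2(cpm + 0.5) scale. Its CRISPR minus control difference was −0.07 ± 0.24 (log2, SE) with an adjusted p of 0.94 by the quasi-likelihood test of edgeR, and since edited transcripts can still be made, its level is no check of the labels.

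Most differences along the split were small. Over the genes that followed it, the median difference was 0.37 on the log2 scale where set A was above, a 1.29-fold difference, and −0.32, or 1.25-fold, where set B was above. The difference reached 2-fold for 24 genes in set A (0.159%) and 7 genes in set B (0.0464%), with extremes of 2.41 and −1.88. Across all tested genes the median difference was −0.01, a value that the scaling of the libraries holds near 0. At the limit of the rule, *gps1* was just inside set A, its lowest set A level and its highest set B level both rounding to 207 cpm, and *tarbp2* was just outside. The corresponding pair for set B was *jph4*, inside, and *leprotl1*, outside. With the libraries grouped by treatment instead, 2841 genes (18.8%) did not overlap between CRISPR and control, 1376 (9.13%) with CRISPR above and 1465 (9.72%) with control above.

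Among genes with a symbol and a mean of at least 2 cpm, the widest gap in set A was that of *gstp1*, a glutathione S-transferase that conjugates reactive compounds to glutathione. Its level was 22.5, 26.3 and 12.96 cpm in set A and 5.16, 5.78 and 5.93 cpm in set B. The lowest set A library was more than double the highest set B library. Set means were 20.6 ± 6.86 and 5.62 ± 0.41 cpm (SD, n = 3 libraries), a difference of 1.73 on the log2 scale, and all 7 measured exon bins of the gene separated the sets. *hes3*, a transcriptional repressor of the Hes family, was next, at 4.63, 4.79 and 4.31 cpm against 1.92, 2.04 and 1.38 cpm. *pmp2*, which encodes a fatty acid-binding protein known from peripheral myelin, was at 148, 154 and 146 cpm in set A and 84.6, 74.3 and 54.4 cpm in set B. Its set A libraries were nearly equal although they came from both treatments, with set means of 149 ± 4.31 and 71.1 ± 15.3 cpm (SD, n = 3) and a 2.12-fold difference. The remaining leading genes of set A differed by between 0.55 and 1.02 on the log2 scale. They included *otulin*, a deubiquitinase of linear ubiquitin chains (0.82), *csrp2*, a LIM-domain protein (0.69), the sulfotransferase *sult6b1.4* (0.76), the lipid droplet protein *plin3* (0.59) and the mitochondrial ribosomal protein *mrpl16* (0.59). *gstp1* and *sult6b1.4* belong to families with many similar copies, and whether copies shared reads was not tested.

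In the other direction the widest gap was that of *hlcs*, which encodes the enzyme that attaches biotin to carboxylases. Its level was 0.912, 0.188 and 1.72 cpm in set A and 4.19, 3.87 and 4.76 cpm in set B, a difference of −1.88 on the log2 scale. *dyrk1a* CRISPR replicate 3 was lowest, with 4 reads, while the set B libraries lay close together at 4.27 ± 0.452 cpm (SD, n = 3). *nrp2*, a co-receptor for semaphorins in axon guidance, was at 25.4, 21.8 and 18.6 cpm in set A and 36.3, 40.3 and 38.9 cpm in set B, 1.75-fold higher in set B, and all 16 of its measured exon bins separated the sets. *slc17a6*, the vesicular transporter that loads glutamate into synaptic vesicles, was at 17.5, 13.7 and 18.5 cpm and 27.7, 25.7 and 30.3 cpm, so that the highest set A library stayed well under the lowest of set B. Levels of *pnpla2*, the lipase that starts triglyceride breakdown, were 18.5, 18.4 and 18.8 cpm against 28.3, 31.1 and 29.9 cpm, with hardly any spread inside set A. *kiaa0586*, needed for cilium formation in other vertebrates, was at 13.7, 14.1 and 12.4 cpm against 22.4, 21.6 and 21.4 cpm, and 31 of its 32 measured bins had the sign of the gene. Others with wide gaps were the thyrotropin receptor *tshr* (−0.97), the histamine receptor *hrh3* (−0.63), the postsynaptic scaffold gene *tanc1* (−0.77), the chloride channel *clcn2* (−0.53) and the protocadherin *pcdh15* (−0.58).

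**Figure D1:**
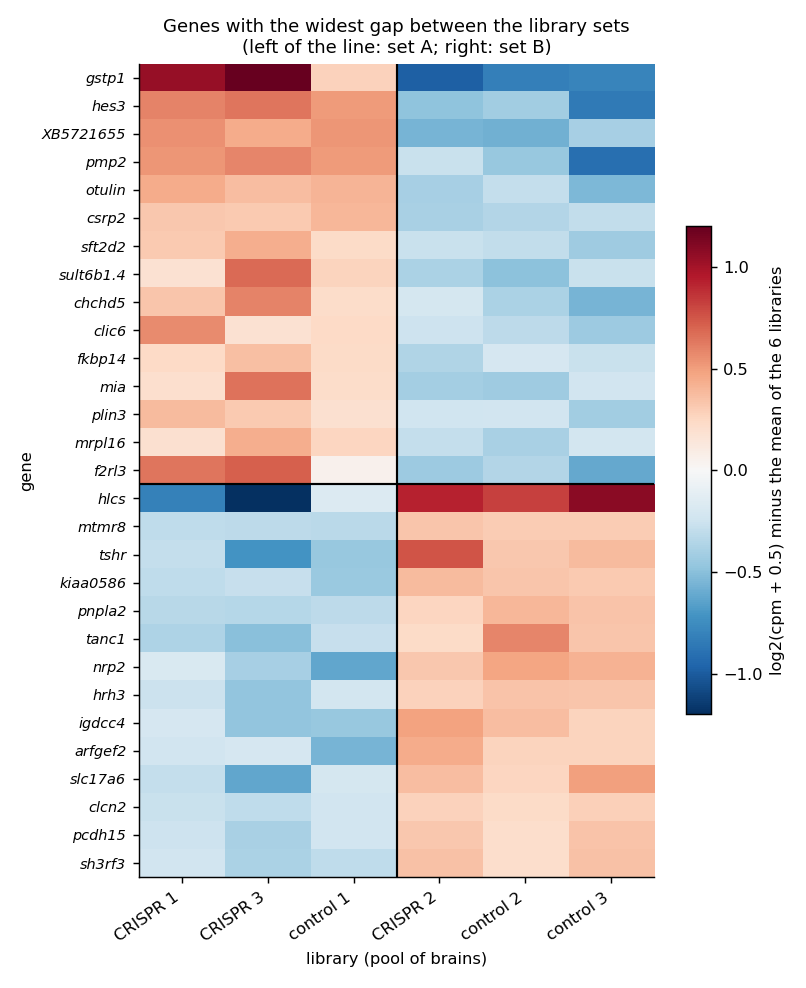
Level of 15 leading genes of set A and 14 of set B, chosen for the widest gap (rows), in each library (columns), as log2(cpm + 0.5) minus the mean of the 6 libraries, with set A left and set B right of the vertical line. In the upper genes every set A library is above every set B library, and in the lower genes the order is the opposite, across both treatments.

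Abundant transcripts followed the split with smaller differences. The 5 most abundant genes above in set A were the chromatin protein genes *hmgn1* (0.21 on the log2 scale) and *hmgb3* (0.32), the bHLH inhibitor *id4* (0.05), the 14-3-3 adaptor *ywhaz* (0.13) and the actin-severing cofilin *cfl1* (0.22). For set B the most abundant included the G protein subunit *gnao1* (−0.17), the translation regulator *eif4g2* (−0.23), the growth cone protein *dpysl2* (−0.18) and the small GTPase *arf3* (−0.35). For *arf3* the levels were 736, 789 and 779.7 cpm in set A and 977, 1029 and 941 cpm in set B, and the sets lay clearly apart. The share of genes that followed the split rose with the level. With genes divided by level into 5 equal classes, 5.77% of the lowest class were above in each set, and of the highest class 14.5% were above in set A and 17.3% in set B. Any grouping of 3 libraries against 3 separates some genes by the order of their values alone, and that share was not computed here.

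Of the 27 gene lists described, the one with the highest share of followers was that of the cytosolic ribosomal proteins, which build the ribosome with its rRNA. Of 75 tested members, 58 were above in set A and 0 in set B, and all 75 had a positive difference, with a median of 0.53 on the log2 scale. Relative to each gene's mean over the 6 libraries, the median member was at 0.10, 0.44 and 0.28 in the set A libraries and at 0.02, −0.57 and −0.29 in the set B libraries. *dyrk1a* CRISPR replicate 3 and control replicate 2 were the ends of this order, and *dyrk1a* CRISPR replicates 1 and 2, of different sets, lay close together. *rpl6* was at 119, 169.5 and 132 cpm in set A and 99.5, 74.5 and 94.1 cpm in set B. *rps3a* was at 136, 186 and 160.3 cpm against 114, 91.6 and 103 cpm, and in each gene *dyrk1a* CRISPR replicate 2 was the highest of set B. Together these genes took 1.15%, 1.39% and 1.23% of all gene counts in set A and 1.08%, 0.786% and 0.907% in set B. For all tested genes, the followers came to 10.6% and 10.7%, which stands beside each count of list members below. These shares varied with level and with the number of exon bins, and the lists were not matched for either. Among genes with 16 to 25 bins they were 3.57% in set A and 16.5% in set B. The lists were chosen with the split known, so their counts describe it and are no test.

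Nuclear genes of the respiratory chain and ATP synthase, which make ATP in mitochondria, behaved alike. Set A was above for 51 of 75 members and set B for 0, with a median of 0.51. The complex III subunit *uqcr11* was at 66.7, 95.9 and 75.4 cpm against 55.9, 37.4 and 50.05 cpm. *ndufs5*, a small subunit of complex I, was at 47.6, 56.4 and 53.5 cpm against 39.9, 26.5 and 33.2 cpm. In both, all set A libraries were above all set B libraries, and control replicate 2 was the lowest of the 6. Proteins of the mitochondrial ribosome, which translates the mitochondrial messages, were above in set A for 43 of 72 members and in set B for 0, with a median of 0.37. *mrpl10* was at 23.4, 28.9 and 23.3 cpm in set A and 19.4, 13.8 and 15.8 cpm in set B.

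The size of the difference varied within these families. The following genes were chosen after their values were seen. *ndufa3* and *uqcrh*, of small accessory subunits, differed by 0.83 and 0.79 on the log2 scale, and *rpl32* by 1.07, of which the control arm gave more than the CRISPR arm (1.78 against 0.31). *ndufs1*, *sdha* and *uqcrc1*, of large catalytic or core subunits, differed by −0.04, −0.02 and 0.10, and their sets overlapped. Across the 75 respiratory chain genes with a gene model of their own, Spearman's rho between the number of exon bins and the difference was −0.57. It was −0.47 across the 71 mitochondrial ribosomal proteins with such a model and −0.32 across the 74 cytosolic ones. The value varied among the other lists described below. It was −0.53 for translation factors, −0.19 for axon guidance and −0.10 for synaptic genes. For zinc finger genes it was 0.02, and for cadherins and protocadherins 0.25. These are correlations across genes that share the same 6 libraries, given as a description.

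Subunits of the proteasome and of the chaperonin, which degrade and fold proteins, leaned to set A, with 17 of 48 above there, 1 above in set B and a median of 0.26, which was 0.15 without *dyrk1a* CRISPR replicate 3. Their median CRISPR minus control difference was 0.28, beside 0.23 inside the CRISPR arm and 0.17 inside the control arm. CRISPR was higher with an unadjusted edgeR p under 0.05 for 24 of the 48, against 6.79% of all tested genes. *psma2*, a core proteasome subunit, was at 202, 268 and 208 cpm against 176, 136 and 180.1 cpm. *psmd5*, an assembly chaperone of the proteasome, was the member above in set B, at 8.59, 8.36 and 7.98 cpm in set A and 10.6, 11.7 and 13.3 cpm in set B. Translation factors had 23 of 60 members above in set A and 1 in set B, with a median of 0.20. *eif3k*, a subunit of the initiation factor eIF3, was at 46.8, 62.4 and 50.5 cpm in set A and 37.6, 30.9 and 35.2 cpm in set B, and *mcts1* and *eif3e* were higher by 0.57 and 0.47 in set A. Splicing, RNA-binding and RNA helicase genes were mixed, with 33 of 195 above in set A, 20 in set B and a median of 0.06. The 4 named by the widest gap, *lsm5*, *snrpd2*, *srsf1* and *lsm6*, were all above in set A, with the core snRNP gene *snrpd2* at 33.5, 48.1 and 34.1 cpm against 27.1, 15.4 and 20.7 cpm, where *dyrk1a* CRISPR replicate 3 was highest and control replicate 2 lowest.

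Of the guidance and adhesion genes that followed the split, nearly all were above in set B, though most members did not follow it. Of 58 axon guidance genes 19 were above in set B and 1 in set A, with a median of −0.18 on the log2 scale. The median member was at 0.16, 0.13 and 0.04 in the set B libraries and at −0.07, −0.08 and −0.16 in the set A libraries, relative to its mean over all 6, so the medians of the sets did not overlap. Beside *nrp2*, the transmembrane semaphorin *sema6c* was at 37.6, 35.9 and 41.5 cpm in set A and 59.5, 58.7 and 55.7 cpm in set B. *slit1*, a secreted repellent that binds Robo receptors, was at 82.8, 80.2 and 79.7 cpm against 98.4, 112 and 111 cpm. Its set A libraries spanned a narrow range under that of all set B libraries, a 1.32-fold difference. The ephrin receptor *epha6* differed by −0.44. Cadherins and protocadherins, which join neighbouring cells, had 13 of 47 members above in set B and 1 in set A, with a median of −0.14. *pcdh18* was at 60.5, 48.2 and 55.9 cpm against 68.1, 70.1 and 70.8 cpm, and among its set A libraries *dyrk1a* CRISPR replicate 3 was lowest.

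Genes of glutamate, GABA and glycine signalling, the fast transmitters of the brain, were above in set B for 15 of 47 members and in set A for 0, with a median of −0.15. The metabotropic glutamate receptor *grm2* was at 25.1, 24.1 and 22.01 cpm in set A and 36.3, 30.2 and 31.4 cpm in set B. Every set B library was above every set A library. Genes of the synapse had 13 of 57 members above in set B and 1 in set A (median −0.13), among them the vesicle protein *syt5* at 68.6, 66.1 and 76.3 cpm against 89.8, 100.5 and 99.9 cpm. Potassium, sodium, calcium and HCN channels had 14 of 98 above in set B and 3 in set A (median −0.12). In the lists of synaptic, transmitter and channel genes the medians per library overlapped, since control replicate 1 of set A lay above *dyrk1a* CRISPR replicate 2 of set B. Their median CRISPR minus control differences were −0.18, −0.19 and −0.18 on the log2 scale.

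Regulatory and metabolic lists were mixed. Chromatin regulators had 26 of 156 members above in set B and 10 in set A (median −0.04), with the histone methyltransferase *nsd2* (−0.32) and the heterochromatin protein *cbx3* (0.39) on opposite sides. Zinc finger genes had 35 of 199 above in set B and 12 in set A (median −0.08). Of 47 cholesterol and lipid synthesis genes 10 were above in set B and 2 in set A (median −0.07). *srebf2*, the transcription factor that drives cholesterol synthesis, was at 131, 141 and 156 cpm against 176, 199 and 199 cpm, and its partner *scap* at 47.2, 45.2 and 38.8 cpm against 56.5, 55.9 and 57.4 cpm. The clock list had 3 of 28 members above in set B, a share equal to that of all tested genes, and 0 in set A (median −0.16). They were the period genes *per1*, *per2* and *per3*. *per3* was at 217, 189 and 236 cpm in set A and 243, 298 and 288 cpm in set B, where the 2 controls of set B were highest and *dyrk1a* CRISPR replicate 3 lowest. *per1* was at 49.9, 32.8 and 58.4 cpm against 58.5, 85.4 and 74.5 cpm, and its sets were barely apart, with *dyrk1a* CRISPR replicate 2 almost level with control replicate 1. Both also differed by treatment before adjustment, by −0.63 for *per1* and −0.34 for *per3* (log2, CRISPR minus control), with adjusted p of 0.267 and 0.301 by edgeR. Times of dissection were not analysed here.

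**Figure D2:**
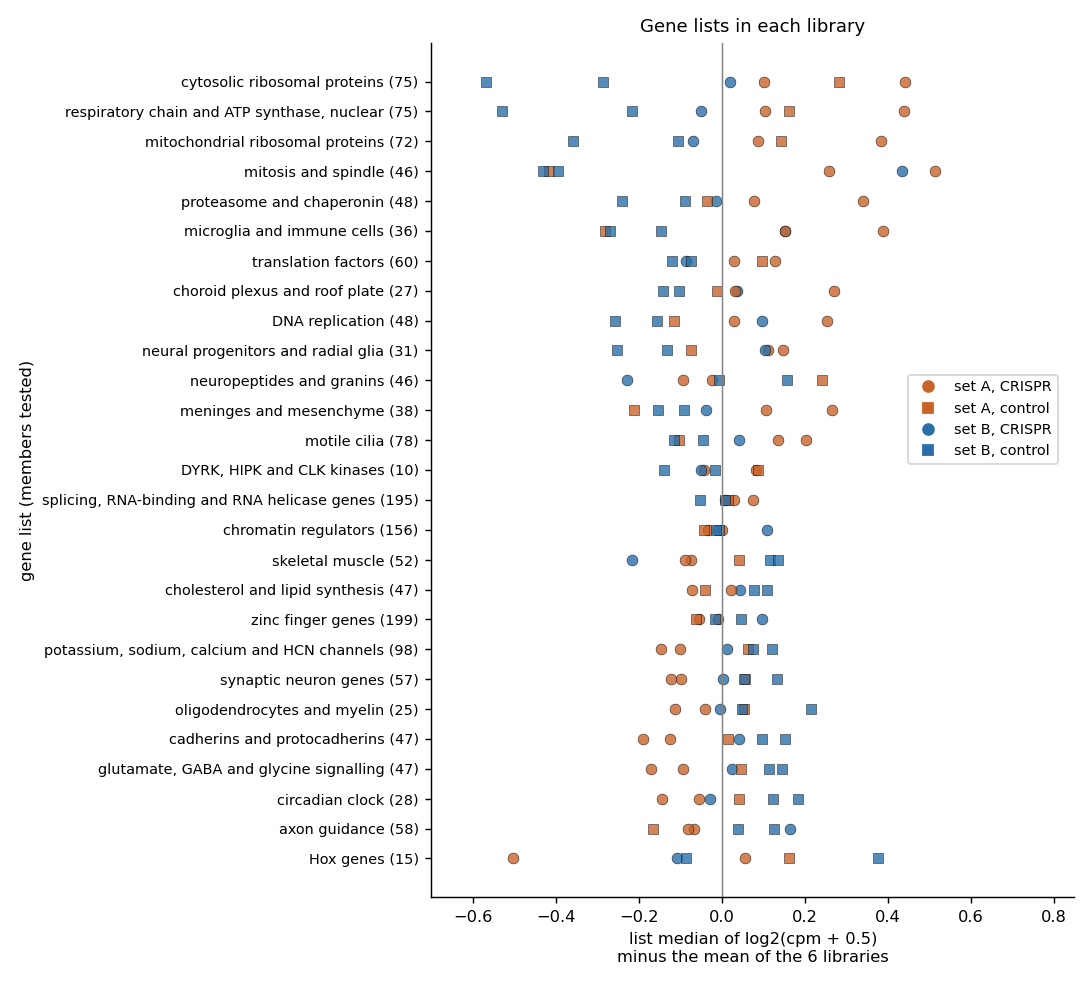
Median over each gene list (rows, members tested in parentheses) of log2(cpm + 0.5) minus the mean of the 6 libraries, 1 point per library, circles for CRISPR, squares for control, and colour for the set. Ribosomal and respiratory chain lists order the libraries from control replicate 2 to *dyrk1a* CRISPR replicate 3, axon guidance separates the sets the other way, and mitosis separates CRISPR from control instead.

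Cell type markers seldom separated the sets. Of 39 tested marker genes for 14 cell types, 0 were above in set A and 2 in set B, which were *mbp*, a myelin protein gene, and *krt8.2*, a keratin. For *mbp* 1 of 4 measured exon bins separated the sets, and *mpz*, of the same cell type, was at 0.78 with overlap. *krt8.2* was near the floor, at 0.42 to 2.12 cpm, and its more abundant copy *krt8.1* was at 0.20 with overlap. Summed marker levels overlapped between the sets for all 14 cell types. For neurons the sums ran from 4791 to 5851 cpm in set A and from 4668 to 5622 cpm in set B, and for radial glia from 3485 to 4230 cpm and from 2699 to 3609.6 cpm. Inside each arm, however, the sums of the set A libraries were above those of set B for 3 of the 14, neurons, radial glia and choroid plexus. Not all members shared this order. Most of the neuron sum was *snap25* (0.04 along the split), while *tubb3* was at 0.19, *elavl3* at −0.18 and *syt1* at −0.31. Most of the choroid plexus sum was *rbp4*, and *otx2* was highest in *dyrk1a* CRISPR replicate 2. Among radial glia markers, *fabp7* (0.66) and *vim* (0.13) were higher in the set A libraries inside each arm, though their sets overlapped. *slc1a3* (0.07) was higher in *dyrk1a* CRISPR replicate 2 (1334 cpm) than in replicate 3 (1276 cpm). Choroid plexus markers came to 999 and 903 cpm against 647 cpm in the CRISPR arm and 454 cpm against 324 and 409 cpm in the control arm. Skeletal muscle markers came to 12.3 to 45.4 cpm in set A and 15.5 to 166 cpm in set B, with the highest value in control replicate 2. Erythrocyte markers came to 45.3 to 176 cpm and 106 to 165 cpm.

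Broader tissue lists were likewise mixed. Choroid plexus and roof plate genes had 4 of 27 members above in set A and 1 in set B, with a median of 0.20. They included *clic6*, a chloride channel protein, at 14.97, 11.4 and 11.8 cpm against 8.30, 7.90 and 7.20 cpm, and *bmp6*, a signalling ligand, at 18.02, 13.4 and 18.5 cpm against 11.3, 11.9 and 9.101 cpm. Motile cilia genes had 8 of 78 members above in set A and 4 in set B (median 0.09), with *ccdc103*, a dynein assembly gene, higher by 0.78 in set A and *rfx3*, a regulator of cilium genes, at −0.64. Microglia and immune genes had 2 of 36 above in set A and 1 in set B (median 0.24), meninges and mesenchyme 1 of 38 and 0 (0.11), skeletal muscle 3 of 52 and 5 (−0.05), oligodendrocytes and myelin 2 of 25 and 3 (−0.14), and Hox genes 1 of 15 and 0 (−0.22). Neuropeptide genes had 5 of 46 above in set A, a share near that of all tested genes, and 0 in set B. Their median of 0.11 was 0.0084 without *dyrk1a* CRISPR replicate 2 and 0.0083 without control replicate 1. Inside the arms, where no CRISPR library is set against a control, the median was 0.19 (CRISPR) and 0.18 (control). The median CRISPR minus control difference of the list was −0.27. The peptide gene *nmb* was at 12.1, 10.9 and 13.2 cpm in set A and 7.25, 7.45 and 8.36 cpm in set B. Somatostatin, *sst.1*, was at 293, 319 and 363 cpm against 237, 197 and 253 cpm, and its exon model is merged with that of an overlapping gene, so its reads cannot be assigned with certainty in these unstranded libraries.

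Set A held 2 CRISPR libraries and set B held 1, so a gene that differed by treatment alone would show 0.333 of its log2 treatment difference along the split. The median of the mitosis and spindle genes along the split was 0.27, but only 1 of 46 members followed it and the median inside the CRISPR arm was −0.05 and inside the control arm −0.00, while their median CRISPR minus control difference was 0.99. Without *dyrk1a* CRISPR replicate 2, the only CRISPR library of set B, 15 members lay above in set A and the median was 0.57. Neural progenitor genes (0.15, with 0.05 and 0.08 inside the arms and 0.34 by treatment) and microglia genes (0.24, with 0.09, 0.03 and 0.51) also had smaller values inside the arms than along the split.

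The difference inside each arm sets no CRISPR library against a control. In the CRISPR arm it is replicates 1 and 3 minus replicate 2, and in the control arm replicate 1 minus replicates 2 and 3. The amount of editing in each CRISPR pool was not compared here. Cytosolic ribosomal proteins had a median of 0.25 in the CRISPR arm and 0.72 in the control arm, respiratory chain genes 0.30 and 0.54, and mitochondrial ribosomal proteins 0.30 and 0.39. Axon guidance genes had −0.24 and −0.22. The median CRISPR minus control differences of these lists were 0.34, 0.36, 0.24 and 0.01 on the log2 scale, in that order. The CRISPR arm and the control arm share no library, but the library set apart in each was fixed by the split found in these same counts. The direction was the same in both for 23 of the 27 lists described, 13 higher and 10 lower in the set A libraries. Over all 53 lists tallied, described or not, it was the same for 38 and opposite for 15. Among those described, the 4 opposite ones were DNA replication, meninges and mesenchyme, skeletal muscle, and oligodendrocytes and myelin. For the Hox genes the arm medians were 0.09 and 0.06, opposite in sign to the median along the split, which itself was 0.05 without *dyrk1a* CRISPR replicate 3 and 0.04 without control replicate 2. Across all 15076 genes the arm differences correlated at Pearson r = 0.28 and Spearman rho = 0.34, a description over genes that are not independent, and the split was chosen on these libraries.

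**Figure D3:**
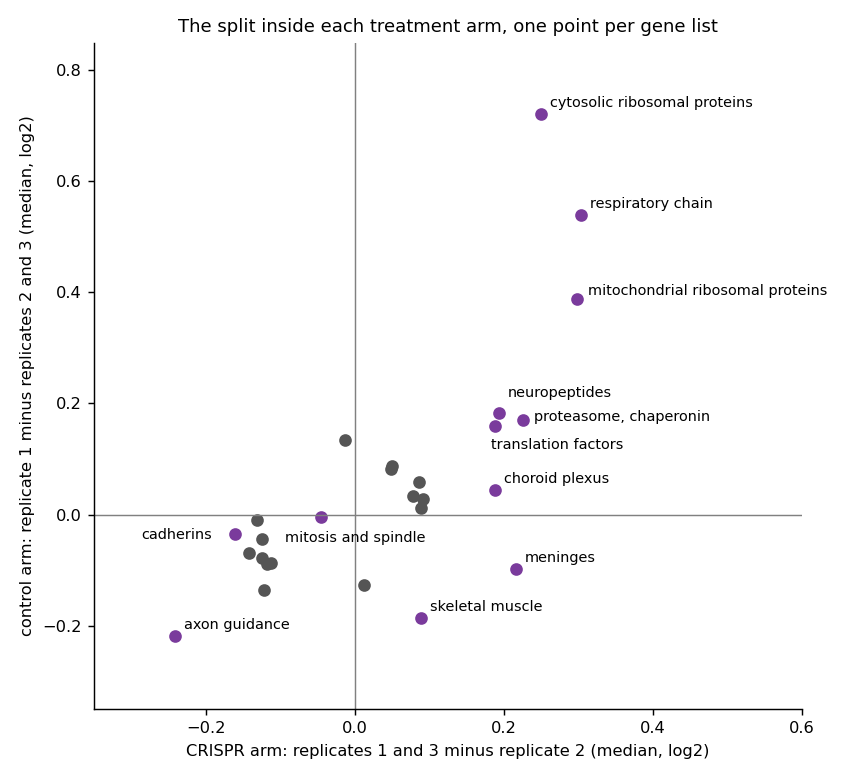
Median log2 difference of each gene list inside the CRISPR arm (horizontal axis) and inside the control arm (vertical axis), 1 point per list. Ribosomal and respiratory chain lists are positive in both arms (0.25 and 0.72 for cytosolic ribosomal proteins), axon guidance is negative in both (−0.24 and −0.22), and muscle and meninges have opposite signs.

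The genes on either side of the split differed in the number of exon bins, the non-overlapping exon pieces of a gene model in which reads were counted. Genes above in set A had a median of 7 bins, genes above in set B 15, and all tested genes 10. Among 2633 genes with 4 to 6 bins, 17.1% were above in set A and 6.27% in set B, with a median difference of 0.08 on the log2 scale. Among 1295 genes with more than 25 bins the shares were 2.08% and 24.6%, with a median of −0.15. The relation did not run evenly, since 458 genes with a single bin had a median of −0.00 with 8.52% and 9.17%. For genes with more than 25 bins the median level relative to the mean of the libraries was −0.04, −0.06 and −0.12 in set A and 0.11, 0.10 and 0.02 in set B. Both arms showed it, with Spearman's rho between bins and difference of −0.19 in the CRISPR arm and −0.23 in the control arm over 14655 genes, against −0.06 for the CRISPR minus control difference. These rho values are descriptions across genes that share libraries.

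**Figure D4:**
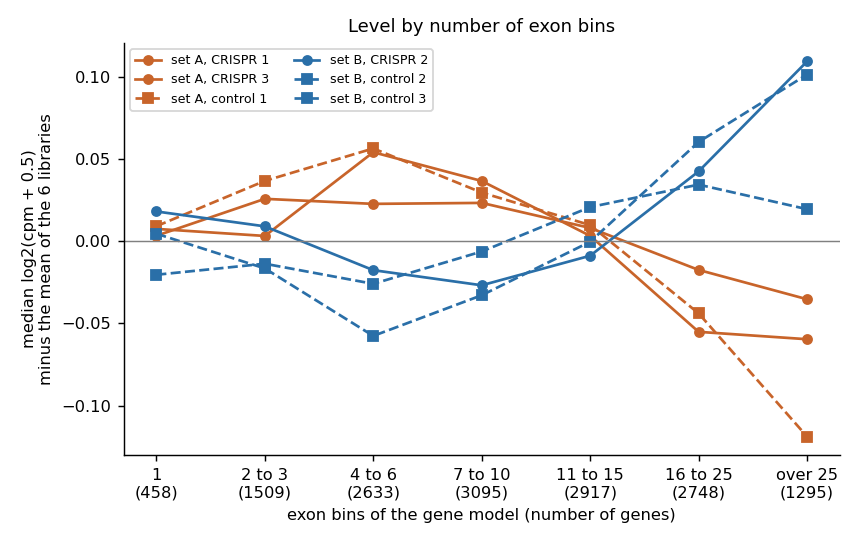
Median log2(cpm + 0.5) minus the mean of the 6 libraries (vertical axis) for genes grouped by the number of exon bins (horizontal axis, number of genes in parentheses), 1 line per library. The set A lines lie above the set B lines at 4 to 10 bins and below them at 16 bins or more.

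The distribution of reads inside genes differed along the split too. For 5533 genes with at least 10 bins and 200 counts in every library, the share of bin counts in the outermost bin, first or last, whichever held more, was taken, and it is a measure chosen after the split was seen. Its median over genes was 10.1%, 11.8% and 10.7% in the set A libraries and 9.99%, 9.39% and 9.57% in the set B libraries. The sets did not overlap, but *dyrk1a* CRISPR replicates 1 and 2 were close. The share was above in set A for 1307 genes (23.6%) and in set B for 163 (2.95%). For the lighter outer bin, 249 genes (4.5%) were above in set A and 220 (3.98%) in set B, and the library medians overlapped. Which outer bin is the 3′ end was not determined. Read-level values that overlapped between the sets were the counts in no exon (5.02% to 5.62% of exon-level counts), ambiguous counts (0.463% to 0.526%) and bin counts per gene count (1.98 to 2.11). The part of exon number and of the outer bins in the gene differences was not tested.

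**Figure D5:**
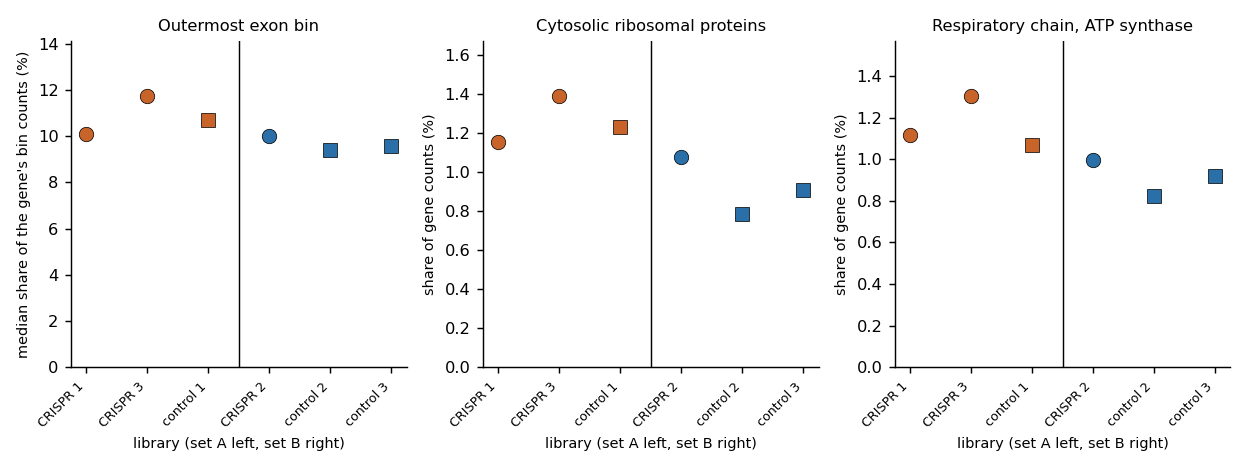
Values per library, set A left and set B right of the line, with circles for CRISPR and squares for control: the median share of a gene's bin counts in its heavier outermost bin, and the shares of gene counts in cytosolic ribosomal proteins and in respiratory chain and ATP synthase genes, all in percent. In each panel the lowest set A library is just above the highest set B library, *dyrk1a* CRISPR replicate 2.

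The DYRK, HIPK and CLK kinases, relatives of the targeted gene, had 2 of 10 members above in set A and 0 in set B. Beside *dyrk1a* this was *hipk1*, a nuclear kinase, at 18.8, 26.1 and 19.7 cpm in set A and 14.8, 13.1 and 12.7 cpm in set B. The similar gene *dyrk1a.2*, named after its values were seen, was at 26.3, 26.6 and 27.3 cpm in set A and 32.9, 29.6 and 27.3 cpm in set B, where the order leaned the other way and the sets overlapped. Sharing of reads between the copies was not examined.

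Genes that followed the split seldom differed by treatment. Between CRISPR and control edgeR called 0 of 15076 genes higher and 1 lower (0.00663%) at an adjusted p under 0.05, and 0 lower without *dyrk1a* CRISPR replicate 3, control replicate 2 or control replicate 3, while before adjustment p was under 0.05 for 1023 higher (6.79%) and 926 lower genes (6.14%). By DESeq2, 295 (1.96%) passed the adjusted threshold. Of the 1602 genes above in set A, edgeR called 0 and DESeq2 called 0 at an adjusted p under 0.05, and 80 (4.99%) had an unadjusted edgeR p under 0.05. Of the 1610 genes above in set B the numbers were 0, 0 and 50 (3.11%). A gene that follows the split has overlapping treatment groups by construction, so these low counts follow from the rule. The p-values measure the spread between pools.

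With the split as a term in the edgeR fit, the common biological coefficient of variation fell from 17.6% to 15.6% and the calls between CRISPR and control went from 1 to 7. Since the term was chosen from the same counts, a fall in variation is built in and is no test of the split. For the same reason the p-values of this fit are too small. The 3 genes called higher in CRISPR were *pimreg*, a mitotic gene (1.48 on the log2 scale, adjusted p = 0.046), *rcor2*, a corepressor (0.65, 0.035), and *rbp4*, a retinol carrier expressed in choroid plexus (1.14, 0.035). The 4 called lower included the immediate early gene *fos* (−0.70, 0.035), the sodium channel subunit *scn2b* (−0.58, 0.046) and *faim2* (−0.70, 0.035). In the fit without the term, adjusted p was between 0.0639 and 0.112 for these 6 genes. *rbp4* was at 894, 794 and 347 cpm in set A and 533, 222 and 314 cpm in set B, where every CRISPR library exceeded every control and, inside each arm, set A exceeded set B.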

How the data were processed

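RNA from 3 *dyrk1a* CRISPR and 3 uninjected control pools was sequenced once per pool. The authors aligned reads with STAR 2.7.3 (per the labels) to the XenBase v9.1 genome and deposited gene-level read counts, exon-level counts per bin of each gene model made with DEXSeq under default settings, and log2(cpm + 1) values, which were recomputed from the counts. The deposited counts are unstranded, so antisense and overlapping genes share reads. The level used here was log2(TMM-scaled cpm + 0.5) for 15076 genes, those that exceeded 1 cpm, before this scaling, in 3 libraries or more. Along the split only means, counts and order were computed. CRISPR and control were compared by the quasi-likelihood test of edgeR 4.0.16 (R 4.3.3) with Benjamini-Hochberg adjustment over all 15076 genes, tested on simulated data, with DESeq2 1.42.0 as an alternative. Other values were computed with python 3.11.15.

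Genes named were, by rule, the 15 with the widest gap between the sets in each direction (symbol, mean of at least 2 cpm), the 5 most abundant in each direction and up to 4 followers of each list; others are said to be chosen after their values were seen. Some genes that the rule names are not reported here. The split, its members and the lists were chosen with earlier results of these data known, list patterns were corrected after values had been seen, and the exon bin classes and the outer bin share were chosen after seeing the data. Exon counts in no feature (5.02% to 5.62%) were left out. Counts per library ranged from 9603583 to 35071943. No 2 libraries agreed within sampling noise (lowest chi-square per degree of freedom 7.16). Alternatives were other scalings, filters, pseudocounts and fold limits, the deposited log2 values, a replicate block, the split as a term and leaving out each library.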

Additional observations from a re-analysis of the deposited data

How the results depend on the processing

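The genes above in set A and in set B stayed within 1.5 times 1602 and 1610 under every other scaling, filter and pseudocount, and the share above in set A among followers went from 46.5% (total counts) to 57.3% (no filter), against 49.9%. The number past 2-fold depended on the log scale. For set A and set B it was 4 and 1 with a pseudocount of 2, 9 and 1 on the deposited log2 values, and 452 and 271 with a log2 limit of 0.5, while the mean of the arm differences gave 14 in set A. Leaving out 1 library leaves fewer libraries to order, which raises the counts by construction, to 2033 to 2794 in set A and 1902 to 2652 in set B, and to 24 to 81 and 14 to 32 past 2-fold. Moves were judged against the spread (pooled SD) of the libraries inside the sets. Each set mixes CRISPR and control, so this spread includes treatment differences and is wide for lists that differ by treatment, such as mitosis. List medians moved by more than this spread only on leaving out a library, ranging from 0.157 to 0.229 for translation factors, −0.0923 to 0.00855 for chromatin regulators, −0.116 to −0.0234 for cholesterol and lipid synthesis, 0.0256 to 0.222 for motile cilia, −0.0418 to 0.370 for meninges, −0.231 to 0.00139 for skeletal muscle and 0.0806 to 0.146 for DYRK, HIPK and CLK kinases. Others stayed within that spread but changed by over 1.5 times: Hox genes from −0.362 to 0.0546, with a change of sign, neuropeptides from 0.00825 to 0.193, microglia from 0.0940 to 0.304, choroid plexus from 0.0708 to 0.246, neural progenitors from 0.0885 to 0.255, DNA replication from 0.0491 to 0.284, mitosis from 0.0664 to 0.574, proteasome and chaperonin from 0.151 to 0.346, splicing from 0.0333 to 0.0917, channels from −0.163 to −0.0556, zinc finger genes from −0.112 to −0.0411, and oligodendrocytes, cadherins, clock, synaptic and transmitter genes between −0.209 and −0.0737. The rho of exon bins ranged from −0.244 to −0.182; its alternatives were added after seeing the data. Of the differences of named genes, judged against the same kind of spread, 2230 stayed and 30 moved. Among named genes that followed the split, 0 changed sign. In these genes every library of 1 set lies above every library of the other. Leaving out a library or averaging the arms therefore cannot reverse their sign, apart from small rescaling. The count follows from the rule and is no test. For named genes that did not follow the split, which include most markers, changes of sign were not counted. Between CRISPR and control, genes called higher and lower numbered 120 and 60 with no filter, 173 and 122 with DESeq2, 3 and 4 with the split as a term, and 0 to 5 and 0 to 3 on leaving out a library. The shallowest library, control replicate 3, limits the order of low genes.

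With the replicate number as a block, edgeR called 2 higher and 1 lower. Deviations from the group means correlated at −0.118, 0.248 and −0.0516 for numbers 1, 2 and 3. *dyrk1a* CRISPR replicate 3 correlated best with control replicate 1 (0.35), and *dyrk1a* CRISPR replicates 1 and 2 with control replicate 2 (0.136 and 0.248). Over all genes *dyrk1a* CRISPR replicate 1 was thus nearer in deviation to control replicate 2, of set B, than to control replicate 1, of its own set (−0.118). Deviations inside a group are not independent, so these values do not settle whether the numbers pair the samples.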
